A study of Vitis labrusca and Vitis cinerea and Vitis acerifolia with 56 samples.

Results

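Berries of a grape labelled Vitis labrusca were compared at veraison (the onset of ripening, when berries soften and colour) and at pre-veraison, 2 weeks earlier, in clusters that had stayed in sunlight throughout. The comparison holds 4 of the 56 RNA sequencing libraries of the series, chosen by their titles: 2 from veraison and 2 from pre-veraison. The cultivar entry reads as a hybrid of Vitis vinifera and V. labrusca, and the free-text descriptions of these libraries name V. cinerea where titles and organism say V. labrusca. The tissue is given as berries, from vines under standard care, and no altered genotype or agent is recorded. For comparison, 4 V. labrusca libraries came from clusters kept in foil-covered boxes up to the same stages (2 at veraison, 2 at pre-veraison), and 3 libraries came from sunlight clusters of V. cinerea (2 at veraison, 1 at pre-veraison). The series describes V. labrusca as a grape that needs sunlight to accumulate anthocyanins and V. cinerea as one that does not, and it followed gene expression through development. Nothing in the labels says whether replicates came from separate vines, so the spread between replicate libraries may be technical. The p-values rest on that spread as estimated over all 46 V. labrusca and V. cinerea libraries, at every stage, and not on these 4 alone. In whole berries, fewer cells of a type and less RNA per cell cannot be told apart.

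Anthocyanins are the red and blue pigments of grape skin. They are built from phenylalanine in a chain that runs through the general phenylpropanoid steps, the early flavonoid steps from chalcone synthase onwards, and a last branch that makes, glucosylates, decorates and stores the pigment. In grapes with coloured skin, MYB transcription factors of the MYBA group switch on the last branch around veraison, at a time when sugars and abscisic acid also rise in the berry. The deposited table pairs its gene identifiers with no names. The names used below are those that the grapevine literature gives these identifiers, recalled without an annotation to check them against, and each is printed with its identifier. MYBA genes, chalcone synthases, F3'5'H genes, phenylalanine ammonia-lyases and stilbene synthases have near copies in the genome, so the share of reads each copy received is uncertain.

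The values are FPKM, fragments scaled by transcript length and by the library total. The depth of the libraries is unknown, and an entry of 0 is given as listed at 0. The libraries totalled 893852 and 959151 FPKM at veraison, against 802675 and 798301 FPKM at pre-veraison. Replicate 1 at veraison stands apart, since it has hardly any low values: 367 genes lay between 0 and 1 FPKM, against 2957 in veraison replicate 2 and 3089 and 2624 in the pre-veraison libraries. It listed 12537 genes above 0, where veraison replicate 2 listed 17289 and the pre-veraison libraries 18549 and 17836. Between the veraison replicates, 1763 of 20333 tested genes differed by more than 2 on the log2(FPKM + 1) scale, against 248 genes between the pre-veraison replicates. Named genes and counts whose call changes without veraison replicate 1 are given with that value. Veraison replicate 2, like replicate 2 of the boxed veraison berries, carries a stage entry of 2 weeks after veraison, which conflicts with its title and description. The rank correlation of veraison replicate 2 across genes was 0.917 and 0.918 with the sunlight libraries taken 2 weeks after veraison. It was 0.918 and 0.9045 with the boxed veraison libraries, 0.865 with veraison replicate 1, and 0.866 and 0.863 with the pre-veraison libraries. Replicate 1, with few low values, had 0.858 and 0.856 with those later libraries and 0.816 and 0.812 with the pre-veraison ones. Which stage entry is right was not tested. Of the genes that separate V. labrusca from the other species up to veraison, 65.6% and 92% stood at the V. labrusca side in the veraison libraries, against 95.7% and 100% in the pre-veraison libraries. Of the genes that separate either other species, 7.14% or less stood at that species' side in all 4. Elsewhere in the series 9 libraries went against their species label, none of them taken before 2 weeks after veraison. Those labelled V. labrusca or V. cinerea were kept in the fit that gives the spread.

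Pigment was recorded at veraison and not at pre-veraison. The labels give an anthocyanin concentration, with no unit, of 0.721 and 0.208 for the veraison libraries, against 0 for both pre-veraison libraries. Both veraison samples thus held pigment and neither pre-veraison sample did, although the veraison values lay far apart (0.465 ± 0.363 at veraison and 0 ± 0 at pre-veraison, mean ± SD, n = 2 each). The sunlight samples taken 2 weeks after veraison are labelled 1.28 and 1.80. The exact two-sided permutation p was 0.333, the smallest that 2 against 2 libraries can give.

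The 10 most abundant genes took 16.6% and 15.9% of the FPKM at veraison, against 8.91% and 10.4% at pre-veraison. Over all genes, 579 were higher and 2533 lower at veraison (limma on log2(FPKM + 1), Benjamini-Hochberg adjusted p under 0.05), which is 2.85% and 12.5% of the 20333 tested. Both veraison libraries lay above both pre-veraison libraries in 12.7% of all tested genes and below them in 42.2%. The genes called higher carried 23.6% and 25.9% of all FPKM at veraison, against 3.39% and 3.17% at pre-veraison, and those called lower carried 3.72% and 4.63% at veraison, against 17.8% and 17.9% at pre-veraison. These genes were chosen by the same contrast, so the shares are a description. The median change was 2.37 among the genes called higher, -1.81 among those called lower and -0.32 over all tested genes.

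The count of falls changed with the libraries used. Of the 2533 genes called lower, 1218 were listed at 0 in veraison replicate 1 and 305 in veraison replicate 2. Over all 20333 tested genes, 7857 and 3473 were listed at 0 in these libraries. Of the genes called lower, 532 were listed at 0 in replicate 1 with at least 1 FPKM in replicate 2. Without veraison replicate 1, 304 genes were higher (1.5%) and 655 lower (3.22%), 4.72% of those tested in all, of which 230 and 611 were also called with it. Without pre-veraison replicate 1, 250 genes were higher and 875 lower, and without pre-veraison replicate 2, 197 were higher and 972 lower. Among the 1409 genes with a mean of at least 100 FPKM over the 4 libraries, 150 were higher and 149 lower, and 83 and 37 without veraison replicate 1. After median-ratio scaling between libraries, which moved the median gene by 0.21, 759 genes were higher (3.75%) and 1610 lower (7.95%), 11.7% in all.

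**Figure D1:**
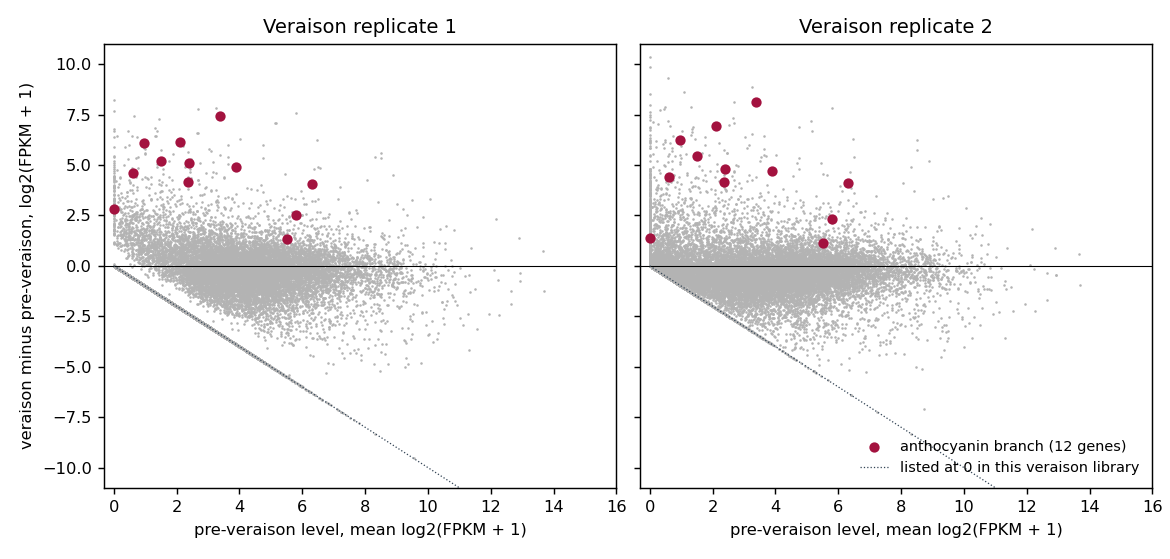
Change of every tested gene from the pre-veraison mean in each veraison library (vertical axis, log2(FPKM + 1) difference) against its pre-veraison level (horizontal axis, mean log2(FPKM + 1)), with the 12 anthocyanin branch genes in red. The dotted diagonal, where genes listed at 0 at veraison lie, is much fuller in veraison replicate 1 than in replicate 2, while the anthocyanin genes lie above 0 in both.

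Most of the anthocyanin branch rose. Of its 12 genes, 10 were higher at veraison and 0 lower, where 2.85% of all tested genes were higher and 12.5% lower, and the median change was 4.66, against -0.32 over all tested genes. Without veraison replicate 1, 9 of the 12 were higher, against 1.5% of all tested genes. In all 12 genes both veraison libraries lay above both pre-veraison libraries, which is so for 12.7% of all tested genes.

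The 3 genes of the MYBA group were near the bottom of the scale at pre-veraison. MYBA1 (VIT_02s0033g00410) had 90.7 and 90.7 FPKM at veraison, against 3.90 and 4.43 FPKM at pre-veraison, a log2 change of 4.15 (SE 0.61, limma adjusted p = 8.75e-05). MYBA2 (VIT_02s0033g00390) had 175 and 147 FPKM at veraison, against 4.13 and 4.31 FPKM at pre-veraison. Its log2 change was 4.95 (SE 0.68, adjusted p = 4.18e-05), and its replicates were close at both stages. MYBA3 (VIT_02s0033g00450) had 133 and 147 FPKM at veraison, against 2.82 FPKM and a value listed at 0 at pre-veraison, a change of 6.17 (SE 1.05, adjusted p = 0.00041). The 3 MYBA genes thus reached levels of the same order, and none of their veraison values overlapped the pre-veraison ones.

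DFR (VIT_18s0001g12800), the dihydroflavonol reductase that opens the branch, had 317 and 279 FPKM at veraison, against 51.6 and 58.8 FPKM at pre-veraison. Its change of 2.41 (SE 0.55, adjusted p = 0.0044) was the smallest among the called genes of the branch, and without veraison replicate 1 it no longer passed (adjusted p = 0.0511). LDOX (VIT_02s0025g04720), which makes the coloured anthocyanidins, had 1350 and 1396 FPKM at veraison, against 85.6 and 73 FPKM at pre-veraison, a change of 4.10 (SE 0.71, adjusted p = 0.000453). UFGT (VIT_16s0039g02230), the glucosyltransferase that stabilises the pigment, had 298 and 531 FPKM at veraison, against 5.93 and 1.67 FPKM at pre-veraison. UFGT changed by 6.54 (SE 1.09, adjusted p = 0.000326). Even its lower veraison library lay far above the higher pre-veraison one.

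Genes that decorate the pigment also rose. The acyltransferase 3AT (VIT_03s0017g00870) had 103 and 121 FPKM at veraison, against 3.75 and 0.655 FPKM at pre-veraison, a change of 5.33 (SE 0.93, adjusted p = 0.000459). The O-methyltransferase AOMT (VIT_01s0010g03510) had 36.2 and 31.9 FPKM at veraison, against 1.38 FPKM and a value listed at 0 at pre-veraison. Its change of 4.5 (adjusted p = 0.00281) did not pass without pre-veraison replicate 2 (3.87, adjusted p = 0.0538). AOMT2 (VIT_01s0010g03490), the neighbouring copy, had 6.15 and 1.59 FPKM at veraison and was listed at 0 in both pre-veraison libraries. It did not pass (2.11, adjusted p = 0.0524, with a range over the alternatives of 0.0165 to 0.438).

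Of 3 transport genes, 2 were called higher, against 2.85% of all tested genes. GST4 (VIT_04s0079g00690), a glutathione S-transferase needed to bring anthocyanins into the vacuole, had 1796 and 2913 FPKM at veraison, against 21 and 3.95 FPKM at pre-veraison. Its change of 7.78 (SE 1.07, adjusted p = 4.18e-05) was the largest of the branch, although its pre-veraison libraries differed severalfold. AM3 (VIT_16s0050g00910), a vacuolar transporter of acylated anthocyanins, had 443 and 395 FPKM at veraison, against 20.2 and 9.54 FPKM at pre-veraison, a change of 4.81 (SE 0.54, adjusted p = 3.77e-06). AM1 (VIT_16s0050g00930), its relative, had 114 and 99.3 FPKM at veraison, against 43.4 and 45.4 FPKM at pre-veraison. Its groups did not overlap, but its change of 1.24 did not pass (adjusted p = 0.133). It did pass in a fit of the contrast's own libraries (adjusted p = 0.0317) and without the libraries that went against their species label (adjusted p = 0.0389), in a range up to 0.404. How far the 3 changes differ from each other was not tested.

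**Figure D2:**
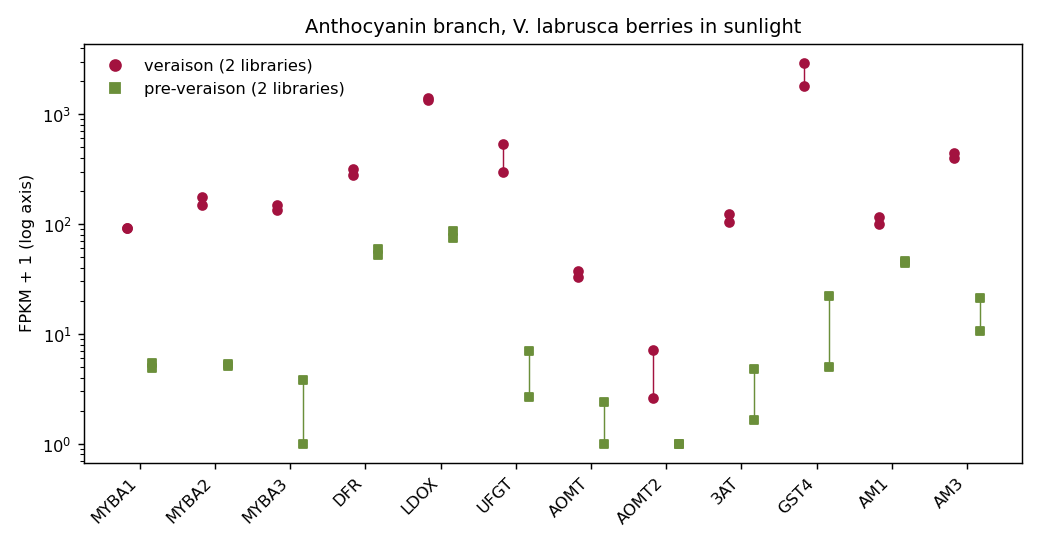
FPKM + 1 on a log axis for the 12 anthocyanin branch genes, with the 2 veraison libraries (red circles, left) and the 2 pre-veraison libraries (green squares, right) of each gene joined by a line. All 12 genes have both circles above both squares, with the widest gap for GST4 (1796 and 2913 FPKM against 21 and 3.95 FPKM) and the narrowest for AM1.

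Upstream, 7 of the 19 tested early flavonoid genes were higher and 0 lower, against 2.85% and 12.5% of all tested genes, with a median change of 1.77 against -0.32 over all tested genes. The list was written with 26 identifiers, of which 24 are in the table and 19 passed the filter on low values. Without veraison replicate 1 the count was 4, and it was 3 and 4 without pre-veraison replicate 1 and 2. Chalcone synthases make the first flavonoid skeleton, and CHS3 (VIT_05s0136g00260) dominated them at veraison with 2657 and 3844 FPKM, against 73.2 and 109 FPKM at pre-veraison. CHS3 changed by 5.15 (SE 0.82, adjusted p = 0.000202). CHS2 (VIT_14s0068g00920) had 302 and 406 FPKM at veraison, against 84 and 83.6 FPKM at pre-veraison, a change of 2.05 (adjusted p = 0.0276) that did not pass without veraison replicate 1 (adjusted p = 0.0976). CHS1 (VIT_14s0068g00930) had 65.3 and 118 FPKM at veraison, against 25.7 and 23.7 FPKM at pre-veraison, and did not pass (1.79, adjusted p = 0.202). At veraison both CHS3 values lay far above those of the other copies.

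Chalcone isomerase closes the flavonoid ring. CHI2 (VIT_13s0067g02870) had 299 and 319 FPKM at veraison, against 82.2 and 98.7 FPKM at pre-veraison, a change of 1.77 (SE 0.39, adjusted p = 0.00332). CHI1 (VIT_13s0067g03820) changed by 1.94 (adjusted p = 0.0293), and did not pass without veraison replicate 1 (adjusted p = 0.0744). Flavanone hydroxylase F3H1 (VIT_04s0023g03370) had 318 and 505 FPKM at veraison, against 11.2 and 44 FPKM at pre-veraison. Its change of 4.10 (SE 0.95, adjusted p = 0.00514) was 3.16 without pre-veraison replicate 1 and no longer passed (adjusted p = 0.106). F3H2 (VIT_18s0001g14310) had 389 and 549 FPKM at veraison, against 283 and 246 FPKM at pre-veraison, and did not pass (0.80, adjusted p = 0.364). The difference between the F3H copies was not tested.

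B-ring hydroxylases set whether red (F3'H) or blue (F3'5'H) pigments are made. Of 15 F3'5'H identifiers in the table, 10 were tested and 2 were higher, against 2.85% of all tested genes. Under 1 FPKM in all 4 libraries were 6 of the identifiers. VIT_06s0009g02830 had 25 and 22.3 FPKM at veraison, against 2.22 and 1.07 FPKM at pre-veraison (log2 change 3.25, SE 0.70, adjusted p = 0.00288), a call lost with a pseudocount of 0.1 (adjusted p = 0.111). VIT_06s0009g02810 had 24.6 and 8.93 FPKM at veraison, against 0.438 and 0.444 FPKM at pre-veraison (3.47, adjusted p = 0.0199), and did not pass without veraison replicate 1 (adjusted p = 0.21). Of the pair of F3'H genes 0 passed in limma, against 15.3% of all tested genes. VIT_17s0000g07200 had 53.1 and 80.8 FPKM at veraison, against 41.6 and 32 FPKM at pre-veraison, and VIT_17s0000g07210 changed by 0.49. Neither had an unadjusted p under 0.05, against 5858 of all 20333 tested genes.

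Among 17 tested general phenylpropanoid genes, of 22 in the list and the table, 4 were higher and 0 lower, against 2.85% and 12.5% of all tested genes. The median change was 0.37, against -0.32 over all tested genes. Of 14 phenylalanine ammonia-lyase (PAL) genes, 11 stayed under 1 FPKM in all 4 libraries. PAL commits phenylalanine to the pathway, and the copy VIT_13s0019g04460 had 122 and 164 FPKM at veraison, against 5.17 and 5.58 FPKM at pre-veraison. That change of 4.48 (SE 0.59, adjusted p = 2.58e-05) also passed whichever of the 4 libraries was left out. A second copy, VIT_06s0004g02620, had 103 and 153 FPKM at veraison, against 17.2 and 19.7 FPKM at pre-veraison (2.71, adjusted p = 0.0236). The cinnamate hydroxylase C4H (VIT_06s0004g08150) had 119 and 126 FPKM at veraison, against 28.3 and 39.6 FPKM at pre-veraison (1.84, adjusted p = 0.0282). The coumarate ligase 4CL (VIT_16s0050g00390) had 97.2 and 84.8 FPKM at veraison, against 23.9 and 23 FPKM at pre-veraison (1.91, adjusted p = 0.00944). The second PAL copy and C4H did not pass whichever of the 4 libraries was left out (adjusted p = 0.0809 to 0.186 over both genes), and 4CL passed only without veraison replicate 2 and not without the other 3 (adjusted p = 0.0594 to 0.0866). The whole list had 1 of 17 genes higher without veraison replicate 1, where 1.5% of all tested genes were, and 1 without either pre-veraison library.

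**Figure D3:**
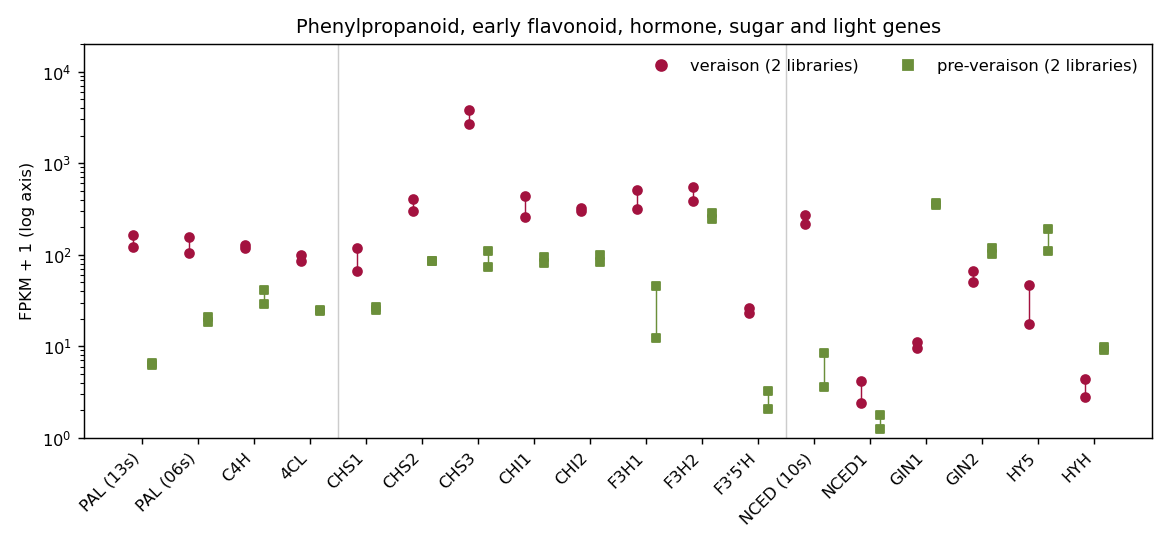
FPKM + 1 on a log axis for phenylpropanoid genes (left of the first grey line), early flavonoid genes (between the lines) and genes of abscisic acid, sugar and light (right), with the 2 veraison libraries (red circles, left) and the 2 pre-veraison libraries (green squares, right) of each gene. CHS3 is the highest gene at veraison, with 2657 and 3844 FPKM against 73.2 and 109 FPKM at pre-veraison, and GIN1 lies in the opposite order, with 8.64 and 10.1 FPKM against 348 and 362 FPKM.

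In the side branches of the pathway limma called 0 of the listed genes, against 15.3% of all tested genes. An unadjusted p under 0.05 was reached by 5858 of all 20333 tested genes. Stilbene synthases, which draw on the same precursors to make resveratrol, did not exceed 0.323 FPKM for any of 46 identifiers in any of the 4 libraries, and 39 were listed at 0 in all of them. At such values the test could hardly show a change in stilbene synthases, and limma's count of 0 among the 40 tested (also 0 at an unadjusted p below 0.05) says nothing of their direction. The proanthocyanidin (tannin) branch held 5 tested genes, of which limma called 0 and 1 had an unadjusted p below 0.05. ANR (VIT_00s0361g00040), which makes flavan-3-ols, had 3.5 and 9.41 FPKM at veraison, against 16.1 and 33.9 FPKM at pre-veraison (-1.83, adjusted p = 0.201). MYBPA1 (VIT_15s0046g00170), an activator of tannin genes, had 44.1 and 36.4 FPKM at veraison, against 3.81 and 9.81 FPKM at pre-veraison (2.51, adjusted p = 0.0974, and 0.0483 in a fit of the contrast's own libraries, in a range up to 0.417). LAR2 (VIT_17s0000g04150) had 7.90 and 31.1 FPKM at veraison, against 8.34 and 8.11 FPKM at pre-veraison (0.87, adjusted p = 0.447), so that its groups overlap.

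Flavonol genes make pale sunscreen pigments, and limma called 0 of 3. None of them had an unadjusted p below 0.05, against 5858 of all 20333 tested genes, and so few genes show little about the branch. The flavonol synthase FLS1 (VIT_18s0001g03470) had 28.5 and 4.38 FPKM at veraison, against 16.2 and 3.30 FPKM at pre-veraison, with each replicate 1 above its replicate 2. Its regulator MYBF1 (VIT_07s0005g01210) had 11 and 4.12 FPKM at veraison, against 5.42 and 6.23 FPKM at pre-veraison. The light-signalling factor HY5 (VIT_04s0008g05210) had 45.6 and 16.5 FPKM at veraison, against 190 and 108 FPKM at pre-veraison (-2.34, SE 1.04, adjusted p = 0.133). Its homologue HYH (VIT_05s0020g01090) had 3.40 and 1.76 FPKM at veraison, against 8.78 and 8.16 FPKM at pre-veraison (-1.44, adjusted p = 0.293). In both light-signalling genes the veraison libraries lay below the pre-veraison ones, which is so for 42.2% of all tested genes. Limma called 0 of these 2 genes (1 had an unadjusted p below 0.05), against 15.3% of all tested genes.

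Of 2 tested abscisic acid genes 1 was higher, and of 2 tested sugar cleavage genes 1 was lower. Over all tested genes 2.85% were higher and 12.5% lower. The 9-cis-epoxycarotenoid dioxygenase gene VIT_10s0003g03750, of the family that controls abscisic acid synthesis, had 214 and 269 FPKM at veraison, against 7.49 and 2.55 FPKM at pre-veraison, a change of 5.45 (SE 1.06, adjusted p = 0.00124) that passed whichever of the 4 libraries was left out. NCED1 (VIT_19s0093g00550), of the same family, had 1.39 and 3.12 FPKM at veraison, against 0.765 and 0.257 FPKM at pre-veraison, and did not pass (1.07, adjusted p = 0.48). The vacuolar invertase GIN1 (VIT_16s0022g00670), which splits sucrose in the young berry, had 8.64 and 10.1 FPKM at veraison, against 348 and 362 FPKM at pre-veraison. Its change was -5.10 (SE 1.30, adjusted p = 0.0101). Its replicates were close at both stages, but it did not pass without veraison replicate 1 or either pre-veraison library (adjusted p = 0.0645 to 0.0809). GIN2 (VIT_02s0154g00090) had 48.7 and 64.5 FPKM at veraison, against 99.6 and 117 FPKM at pre-veraison (-0.93, adjusted p = 0.282).

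The largest changes outside these lists belonged to genes with no name here. VIT_11s0016g04920 had 2186 and 4542 FPKM at veraison, against 30.4 and 1.96 FPKM at pre-veraison (8.35, SE 1.73, adjusted p = 0.00216), a call lost without pre-veraison replicate 2 (adjusted p = 0.0595). VIT_03s0063g01290 had 1395 and 1793 FPKM at veraison, against 12.1 and 2.18 FPKM at pre-veraison (7.94, SE 2.49, adjusted p = 0.0323), a call lost whichever of the 4 libraries was left out (adjusted p = 0.0911 to 0.194). Among the falls, VIT_14s0066g02640 was listed at 0 in both veraison libraries, against 604 and 166 FPKM at pre-veraison (adjusted p = 0.00535, and 0.0713 without pre-veraison replicate 1). VIT_01s0127g00870 was also listed at 0 in both veraison libraries, against 233 and 93.8 FPKM at pre-veraison (adjusted p = 3.97e-08), and passed whichever of the 4 libraries was left out.

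Set among the other stages of V. labrusca in sunlight, the step from pre-veraison to veraison was where most of these genes left their low level. MYBA1 was listed at 0 in both young berry libraries, which carry no light treatment, and had 3.90 and 4.43 FPKM at pre-veraison, 90.7 and 90.7 FPKM at veraison, 36.7 and 64.1 FPKM 2 weeks later and 33.2 and 56.7 FPKM at maturity. UFGT had 2.62 FPKM and a value listed at 0 in young berries, 5.93 and 1.67 FPKM at pre-veraison, 298 and 531 FPKM at veraison, 131 and 354 FPKM 2 weeks later and 127 and 131 FPKM at maturity. For both genes the mean was highest at veraison, but the UFGT values at veraison overlap those 2 weeks later. GST4 stayed high after veraison, with 2067 and 3679 FPKM 2 weeks later and 2149 and 1456 FPKM at maturity. PAL (VIT_13s0019g04460) had 41.5 and 65.1 FPKM in young berries, 5.17 and 5.58 FPKM at pre-veraison, 122 and 164 FPKM at veraison, 184 and 233 FPKM 2 weeks later and 259 and 286 FPKM at maturity, so that pre-veraison was its lowest stage. CHS3, LDOX and DFR likewise had higher mean levels in young berries than at pre-veraison, with the young berry replicates far apart (LDOX 120 and 763 FPKM). The dioxygenase gene VIT_10s0003g03750 had 214 and 269 FPKM at veraison, 122 and 137 FPKM 2 weeks later and 55.9 and 3.86 FPKM at maturity. GIN1 had 385 and 326 FPKM in young berries and 1.99 and 0.468 FPKM 2 weeks after veraison. Replicate 1 of the young berries is another library with few low values, and mature replicate 2 is among the 9 libraries that went against their species label. These courses are descriptions, and steps other than pre-veraison to veraison were not tested.

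**Figure D4:**
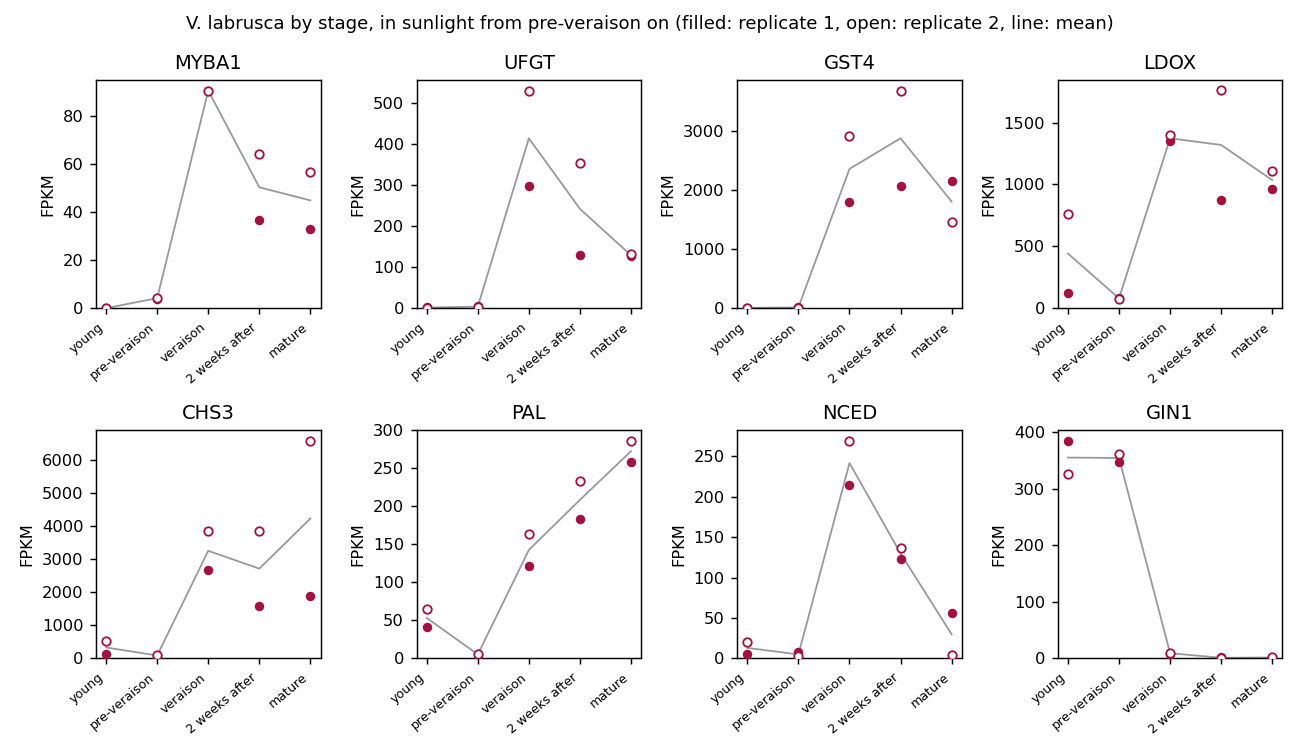
FPKM (linear axes, each from 0) at 5 stages of V. labrusca for MYBA1, UFGT, GST4, LDOX, CHS3, PAL (VIT_13s0019g04460), NCED (VIT_10s0003g03750) and GIN1, with replicate 1 filled, replicate 2 open and a line through the means. The young berries carry no light treatment, the other stages grew in sunlight. All but GIN1 are low at pre-veraison and high at veraison, where MYBA1 stands at 90.7 and 90.7 FPKM.

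Whether the step depended on light was asked by comparing it with the same step in boxed clusters, whose 4 libraries are separate from these. The labels give an anthocyanin concentration of 0 for both boxed veraison samples and both boxed pre-veraison samples, where the sunlight veraison samples had 0.721 and 0.208. In boxes, 133 genes were higher and 260 lower at veraison, 0.654% and 1.28% of those tested. Of these, 106 were also higher in sunlight, which is 79.7% of the boxed rises and 18.3% of the sunlight rises, and 222 were also lower, 85.4% of the boxed falls and 8.76% of the sunlight falls. The difference of the steps passed for 4 genes (0.0197%), 1 with the higher change in sunlight (0.00492%) and 3 with the lower (0.0148%), while 1400 genes had an unadjusted p below 0.05. Those 4 genes did not exceed 2.55 FPKM in any of the 8 libraries. Limma called 0 genes of the lists in this test, and 2 each of the anthocyanin, early flavonoid and phenylpropanoid lists had an unadjusted p below 0.05. The count of 4 was 481 without veraison sunlight replicate 2, when the step rests on replicate 1 alone, and 1 without veraison sunlight replicate 1. It was 9 without pre-veraison sunlight replicate 1, 2 without boxed veraison replicate 2, and 15 and 0 without boxed pre-veraison replicates 1 and 2.

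Within the anthocyanin branch the boxed change passed for 5 of 12 genes, with a median of 3.22 against 4.66 in sunlight, and the sunlight change was the larger in all 12. Of the 579 genes called higher in sunlight, 520 had a smaller change in boxes. Those genes were chosen by their sunlight change, which favours a smaller change in boxes, so that count is a description. MYBA1 changed by 3.10 in boxes (adjusted p = 0.00578), with 15.7 and 7.29 FPKM at veraison against 0.338 and 0.4 FPKM at pre-veraison. UFGT changed by 4.57 in boxes (adjusted p = 0.0238) and had 60.6 and 20.2 FPKM at veraison, against a value listed at 0 and 1.31 FPKM at pre-veraison. LDOX had 183 and 79.7 FPKM at veraison in boxes, against 33.9 and 49.9 FPKM at pre-veraison (1.53, adjusted p = 0.435). The sunlight change exceeded the boxed change by 2.57 for LDOX and by 3.89 for GST4, neither past the threshold (limma adjusted p = 0.665 for both). For PAL (VIT_13s0019g04460) the sunlight change exceeded the boxed change by 3.39 (limma adjusted p = 0.297). In boxes that gene had 17.2 and 2.07 FPKM at veraison, against 1.67 and 3.63 FPKM at pre-veraison, so that its boxed groups overlap where the sunlight groups do not.

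**Figure D5:**
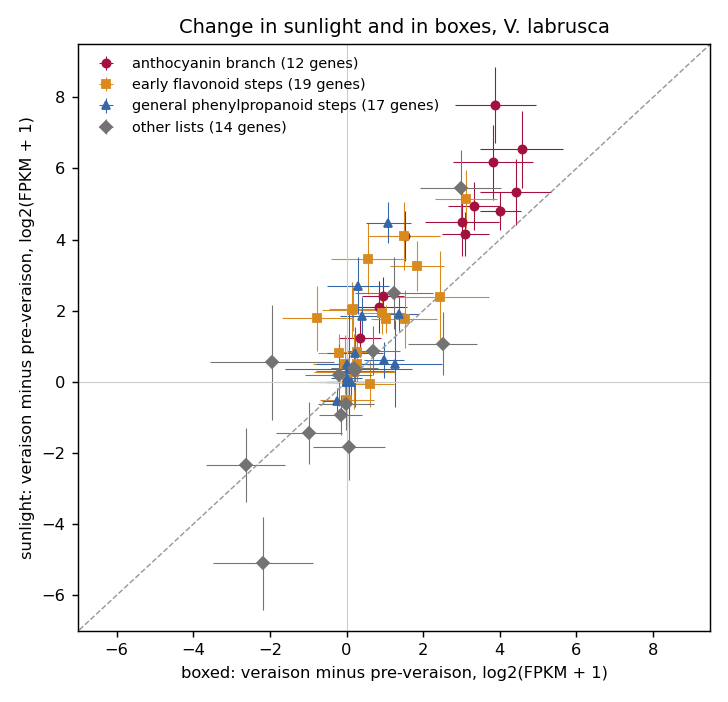
Change from pre-veraison to veraison in sunlight (vertical axis) against the change in boxed clusters (horizontal axis) for the 62 tested genes of the lists other than stilbene synthases, in log2(FPKM + 1) with standard errors of the limma fit as bars; the dashed line marks equal change. The 12 anthocyanin branch genes (red circles) all lie above the dashed line, and 0 of the 62 differ between sunlight and boxes at the adjusted threshold.

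The same step in sunlight was set against V. cinerea, which has 1 pre-veraison library. That library has no replicate, so the fit assumes that it varies like the other groups, and the errors and p-values below carry no spread of its own. The V. cinerea step passed for 11 genes that were higher and 119 that were lower, 0.0541% and 0.585% of those tested and 0.639% together. The difference between the species passed for 557 genes (2.74%), 170 with a higher change in V. labrusca (0.836%) and 387 with a lower one (1.9%). Among the listed genes DFR changed by 3.49 more in V. labrusca than in V. cinerea (SE 0.87, adjusted p = 0.0301), F3H1 by 5.72 more (SE 1.5, adjusted p = 0.0393), CHI2 by 2.33 more (SE 0.61, adjusted p = 0.0392) and PAL (VIT_13s0019g04460) by 3.65 more (SE 0.93, adjusted p = 0.0329). Without V. labrusca veraison replicate 1, none of these 4 differences passed (adjusted p = 0.0881 for DFR, 0.0781 for F3H1, 0.0898 for CHI2 and 0.0652 for PAL VIT_13s0019g04460). Nor did any of the 4 pass without pre-veraison replicate 1 or without V. cinerea veraison replicate 1 (adjusted p = 0.0896 to 0.165). The 12 anthocyanin branch genes had a median change of 2.17 in V. cinerea, against 4.66 in V. labrusca. In V. cinerea MYBA2 changed by 3.98 and UFGT by 5.05, while DFR changed by -1.07. Of the branch only MYBA2 passed in V. cinerea, and the UFGT and DFR changes did not. The V. labrusca change exceeded the V. cinerea change by 0.97 for MYBA2 and by 1.48 for UFGT, neither past the threshold. The labels give an anthocyanin concentration of 0.083 and 0.016 for the V. cinerea veraison libraries and 0 for its pre-veraison library. The count of 557 was 220 without V. labrusca veraison replicate 1, 1332 without veraison replicate 2, and 187 and 221 without pre-veraison replicates 1 and 2. It was 277 and 258 without V. cinerea veraison replicates 1 and 2, and the V. cinerea pre-veraison library could not be left out.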

How the data were processed

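Per the submitters' processing notes, the authors used TopHat2 2.0.14 and Cufflinks 2.2.1. Which genome build they aligned to is not given. The deposited table holds FPKM per gene and library (29971 genes, 56 libraries), with no read counts, so library depth cannot be stated. Values were analysed as log2(FPKM + 1), a scale that understates the change of low genes. Genes with at least 1 FPKM in at least 2 libraries were fitted with limma 3.58.1 in R 4.3.3 (empirical Bayes trend, 1 coefficient per group, all 46 libraries of both species, 20333 genes; 21 degrees of freedom for the residual) and called at a Benjamini-Hochberg adjusted p under 0.05 over all genes. The fit was checked on simulated data. Groups follow the titles. Few low values means that the lowest 1% of values above 0.01 FPKM ended above 1 FPKM (3 libraries). Genes that separate a species stood at least 1 log2 unit above all libraries of the other species in those up to veraison, each library being judged without its own values (22 for V. labrusca, 13 for V. cinerea, 271 for V. acerifolia). The libraries, gene lists and tests were chosen with earlier results of these data known. Named genes were all anthocyanin branch genes, up to 4 of each other list by smallest p, and the 2 largest unnamed changes each way; the remaining called chalcone synthase, chalcone isomerase and F3'5'H genes, CHS1, F3H2 and F3'H were added after their values were seen. Lists that needed gene descriptions (cell wall, photosynthesis, seed and hormone genes) were not formed, so the tissue was not checked against markers. Replicate numbers did not pair the libraries (correlation of deviations between the stages 0.0098).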

Additional observations from a re-analysis of the deposited data

Results flagged for a closer look

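Differences between groups were tested as differences of the fitted changes. The change from pre-veraison to veraison differed between sunlight and boxed V. labrusca clusters for 4 genes, none above 2.55 FPKM in any of the 8 libraries, and between V. labrusca and V. cinerea in sunlight for 557 genes. Among named genes the fitted change was larger in V. labrusca than in V. cinerea for DFR (VIT_18s0001g12800) by 3.49, CHI2 (VIT_13s0067g02870) by 2.33, F3H1 (VIT_04s0023g03370) by 5.72 and PAL (VIT_13s0019g04460) by 3.65 on the log2(FPKM + 1) scale. With a pseudocount of 0.1, and in a fit of the contrast's own libraries, the differences for CHI2, F3H1 and PAL did not pass, while that for DFR did. Without V. labrusca veraison replicate 1, which has few low values, the counts were 1 and 220 and none of these 4 named differences passed (limma adjusted p = 0.0652 to 0.0898). V. cinerea has a single pre-veraison library, which could not be left out and gives no spread of its own, so its part in the differences was not tested.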

How the results depend on the processing

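Of the 37 genes named by rule 24 were called. Their direction held under every alternative run, and 13 of the 24 kept their call under all of them. The called genes added later (CHS2, CHI1 and F3'5'H VIT_06s0009g02810) are not in this tally. They were followed only without veraison replicate 1, with changes of 2.26, 2.30 and 2.78. The 3112 genes changed became 1444 (901 lower) with the libraries of the contrast alone and 1348 without the 3 libraries with few low values (380 higher, 968 lower), and 1610 were lower after median-ratio scaling. Leaving out 1 library gave 959 to 3505 genes changed, 197 to 586 higher and 655 to 2919 lower. List counts without 1 library were 9 to 11 for the anthocyanin branch, 3 to 5 for early flavonoid and 1 to 2 for phenylpropanoid genes, with 2 phenylpropanoid genes also in V. labrusca up to veraison alone. The 4 genes that differed in boxed berries became 27 with no filter, 17 with values under 1 FPKM set to 0, 2 after scaling, 0 in each of V. labrusca alone, up to veraison alone and the contrast alone (with 1130, 1346 and 2043 at an unadjusted p under 0.05 in limma), 19 without the 9 libraries against their label and 0 to 481 without 1 library. The 557 that differed in V. cinerea became 319 with a pseudocount of 0.1, 360 after scaling, 120 with the contrast alone and 187 to 1332 without 1 library (277 and 258 without either V. cinerea veraison library). With the replicate block 3351 genes changed, 628 higher and 2723 lower, 556 differed in V. cinerea and 7 in boxed berries in place of 4. It changed no call among the 37 genes named by rule. Among those 37 genes signs turned only in uncalled ones, given here. Without veraison replicate 1, as without the libraries with few low values, FLS1 was at -0.678, FLS (VIT_18s0001g03430) at 0.602 and MYBF1 at -0.413. FLS1 was at -0.451 without pre-veraison replicate 2, and its values without 1 library reached 1.78. LAR2 was at -0.0511 and MYBPA2 (VIT_11s0016g01310) at -0.275 without veraison replicate 2. Leaving out 1 library took LAR2 up to 1.80, MYBPA2 to 1.06, MYBF1 to 0.814 and FLS down to -1.87. Contrasts with V. cinerea could not be fitted to V. labrusca alone. The cause of these shifts was not tested.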
